A study of Mus musculus with 4 samples.

Results

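The 10 genes described here encode junction proteins: the connexins Gjb2, Gjb6 and Gja1, and the claudins Cldn4, Cldn6, Cldn7, Cldn9, Cldn10, Cldn11 and Cldn12. They were chosen by symbol from the 27998 genes of the table, with earlier results of these data known. All 10 were found and passed a minimum of 20 unique molecular identifiers (UMIs, each standing for 1 captured RNA molecule) in every whole-library comparison. Their RNA was counted in single cells of mouse inner ear organoids, which are aggregates grown from pluripotent stem cells that form sensory epithelium and its surrounding tissue. Wild type (WT) organoids were grown from R1/E embryonic stem cells. Knockout (KO) organoids were grown from R1/E-Tmprss3KO-GFPKI, a name that states a Tmprss3 knockout and a GFP knock-in. Both lines share the 129X1x129S1 background. Each line was sampled at day 25 and day 35, with 1 library in each of the 4 groups, so no difference between groups has a replicate check and no test was made. The sources used here do not say whether the KO line is 1 clone or which part of Tmprss3 was targeted.

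Connexins assemble in the membranes of neighbouring cells into gap junction channels, through which ions and small metabolites pass. In the cochlea and vestibule, supporting cells are joined by channels of Gjb2 and Gjb6, and the fibrocytes of the lateral wall form a second connected network; Gjb2 is the gene most often mutated in inherited deafness. Claudins are the membrane-spanning strands of tight junctions, and which claudins a cell makes sets how leaky its epithelium is and to which ions. In the inner ear they separate the potassium-rich endolymph from perilymph, and loss of Cldn9 or Cldn11 in mice causes deafness.

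Tmprss3, the targeted gene, was near the limit of detection in every library, with 18 and 7 UMIs at day 25 (WT, then KO) and 8 and 5 UMIs at day 35, and the KO libraries were not free of it. Between 6729 and 11190 cells were kept per library, 35853 in all, holding 30887121 to 84439223 UMIs. The WT library of day 35 stood apart in depth, with a median of 3089 UMIs per cell against 4420 to 6371 in the other libraries. From 76 to 142 barcodes were shared between each pair of libraries, at most 1.58% of the smaller one. Clustering without the 10 genes gave 25 clusters, of which 21 fell into 17 classes named "-like" from their markers and 4 stayed unnamed. Otic epithelium, here the otic supporting epithelium-like and otoconial epithelium-like clusters together, accounted for 1.90%, 1.5%, 11.1% and 18.1% of the cells (WT and KO at day 25, then at day 35). Of the 334 pluripotent cell-like cells, 319 were in the KO library of day 35.

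Levels are counts per 1000000 UMIs of the same cells (CPM), summed over cells, and intervals are 95% intervals for counting error only. A run of 4 values always refers to WT and KO at day 25, then WT and KO at day 35. In a whole library, fewer cells of a type and less RNA per cell cannot be told apart, so each gene is given both per library and within classes. Skeletal muscle-like cells, which should lack the epithelial claudins and the cochlear connexins, give a reference level for each gene. Whether this level is background was not tested for any gene, Gja1 and Cldn10 included.

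In genome build GRCm38, Gjb2 (ENSMUSG00000046352) lies on chromosome 14 at 57098600 to 57104702 and Gjb6 (ENSMUSG00000040055) at 57123303 to 57133611, both on the minus strand, 18600 bases apart with the gene Gm4491 between them. Cldn6 (chromosome 17, 23679249 to 23682446, plus strand) and Cldn9 (chromosome 17, 23682584 to 23684026, minus strand) face each other with their 3′ ends 137 bases apart; the sources used here do not say whether the counting used strand, so reads past either end could have been counted for the neighbour. Cldn4 (chromosome 5, 134945119 to 134946934, minus strand) lies 39279 bases from Cldn3. The other members are Gja1 on chromosome 10 (56377330 to 56402513), Cldn7 on chromosome 11 (69964779 to 69967885), Cldn10 on chromosome 14 (118787908 to 118875489), Cldn11 on chromosome 3 (31149920 to 31164324) and Cldn12 on chromosome 5 (5489537 to 5514958). Promoter sequences from RefSeq (GRCm38.p6) matched 9 of the 10 symbols. The 250 bases before the start are printed 5′ to 3′ on the sense strand for Gjb2 and Gjb6, neighbours that were high in the same mesenchymal cells, for Cldn4, the member that differed most between the lines in otic epithelium, and for Cldn11, which was high in the same meninges-like cells as Gjb6. Capitals mark any match on either strand to 4 short motifs that promoters often hold. The GC box was searched as the letters GGGCGG, which factors of the Sp family can bind. The E-box was searched as CAGGTG, a site for basic helix-loop-helix and zinc finger factors. The CCAAT box is spelled by its name, and the TATA box, where the basal machinery can settle, was searched as TATAAA. No matches overlap one another in these windows.
Gjb2: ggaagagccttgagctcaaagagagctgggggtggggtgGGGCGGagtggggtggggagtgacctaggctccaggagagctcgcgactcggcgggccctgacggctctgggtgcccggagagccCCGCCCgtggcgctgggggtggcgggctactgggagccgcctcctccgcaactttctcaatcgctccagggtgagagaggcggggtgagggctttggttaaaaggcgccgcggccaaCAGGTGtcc
Gjb6: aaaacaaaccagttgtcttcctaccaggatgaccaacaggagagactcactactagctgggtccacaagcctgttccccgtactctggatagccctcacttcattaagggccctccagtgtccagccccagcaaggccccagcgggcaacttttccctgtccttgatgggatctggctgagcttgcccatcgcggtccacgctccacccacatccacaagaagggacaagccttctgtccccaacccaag
Cldn4: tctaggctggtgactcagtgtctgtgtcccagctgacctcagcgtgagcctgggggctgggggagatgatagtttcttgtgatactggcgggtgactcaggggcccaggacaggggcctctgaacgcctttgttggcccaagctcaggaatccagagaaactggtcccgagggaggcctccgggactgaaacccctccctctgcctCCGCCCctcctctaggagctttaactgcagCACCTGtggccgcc
Cldn11: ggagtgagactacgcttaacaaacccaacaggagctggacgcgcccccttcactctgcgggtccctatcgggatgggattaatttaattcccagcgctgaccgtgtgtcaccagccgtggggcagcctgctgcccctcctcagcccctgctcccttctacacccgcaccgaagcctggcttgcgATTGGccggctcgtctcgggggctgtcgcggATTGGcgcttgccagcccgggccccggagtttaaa
The Gjb2 window (chr14:57104703-57104952) held 2 GC boxes and 1 E-box, and its GC content was 69.2%. The Gjb6 window (chr14:57133612-57133861) held no match to the 4 motifs, at a GC content of 56.8%. The Cldn4 window (chr5:134946935-134947184) held 1 GC box and 1 E-box, and the Cldn11 window (chr3:31149670-31149919) held 2 CCAAT boxes. Such matches are common: of 32851 promoter windows of this length, 32.7% held the GC box, 17.2% the E-box, 33.8% the CCAAT box and 12.4% the TATA box. They describe the letters and are not evidence of binding.

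Gjb2 was a gene of several compartments. Over whole libraries its level was 17.0, 10.6, 22.2 and 30.6 CPM. Meninges-like cells held 33.7% of all its UMIs, keratinocyte-like cells 25.4% and otic epithelium 23.3%. These classes were 10.4%, 3.53% and 6.91% of the cells. The order changed with the day: keratinocyte-like cells held 47.1% (WT) and 36.2% (KO) at day 25 but 5.10% and 6.05% at day 35, when meninges-like cells led in WT (44.8%) and otic epithelium in KO (43.4%). Its level per class was highest in the small otic fibrocyte or otic mesenchyme-like class (86 cells, led by Otos, Otor, Coch and Pou3f4, and also by the cartilage collagens Col2a1 and Col9a1). There WT cells had 174 CPM (interval 124 to 238, 38 cells) at day 25 and 718 CPM (580 to 879, 39 cells) at day 35. The KO libraries held only 3 and 6 cells of this class, with 13 and 15 Gjb2 UMIs, too few to compare. Several of the alternative clusterings did not form this class.

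In otic supporting epithelium-like cells, the compartment where Gjb2 couples supporting cells in the mature ear, the Gjb2 level was 67.1, 68.2, 36.0 and 73.5 CPM. Of these the WT library of day 35 was low and the other libraries were alike. Otoconial epithelium-like cells gave 48.8, 88.0, 35.1 and 42.6 CPM, and meninges-like cells 64.6, 54.4, 71.8 and 113 CPM. In keratinocyte-like cells the level was 100 and 90.4 CPM at day 25 and 57.5 and 64.1 CPM at day 35, lower in both lines on the later day. The hair cell-like class, of 129 cells, had 39 Gjb2 UMIs, of which 28 came from the 20 WT cells of day 25. Of these 20 cells 16 had a top doublet score, as did 0, 41 and 7 of the 12, 62 and 35 hair cell-like cells of the other libraries. Clustered again without such cells, the class had 2, 9, 16 and 27 cells, and Gjb2 was at 20.4, 31.2, 0 and 0 CPM, the last 2 values with upper limits of 67.5 and 29.6 CPM. Skeletal muscle-like cells stayed at 0.818, 1.10, 3.66 and 4.99 CPM, higher at day 35 in both lines. Fibroblast or mesenchyme-like cells had 3.76, 2.20, 2.35 and 6.87 CPM, lower at day 35 in WT and higher in KO. Whether these low levels are background was not tested.

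Gjb6, which forms mixed channels with Gjb2 in the cochlea, was above all a gene of meninges-like cells, led by Slc6a13, Apod, Ptgds and Aldh1a2. These were 10.4% of the cells and held 76.6% of the Gjb6 UMIs, at 194, 193, 241 and 295 CPM. Whole libraries had 16.8, 15.0, 43.0 and 40.9 CPM, low at day 25 and high at day 35 in both lines. The share of meninges-like cells was 7.39%, 6.69%, 16.5% and 13.5%, also higher at day 35 in both lines. Its part in the whole-library levels of Gjb6 was not tested. In the otic fibrocyte or otic mesenchyme-like class Gjb6 was at 129 CPM (86.5 to 186) in WT at day 25 and at 665 CPM (532 to 820) in WT at day 35. Otic epithelium was low, at 21.2, 25.1, 19.7 and 27.5 CPM, against 1.93, 3.37, 4.13 and 1.15 CPM in skeletal muscle-like cells. The otic level was slightly higher in KO on each day, with overlapping level intervals. At day 35 the interval of the KO over WT ratio, given below, lay wholly on the higher side.

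Gjb6 was found more often in cells with Gjb2 than in cells without it. Each cell was thinned to 2000 UMIs for this count, which left out 707 cells of WT at day 35 and 0 elsewhere. Among 3607 meninges-like cells, Gjb6 was present in 52.4% of those with Gjb2 and in 27.3% of those without. In the otic fibrocyte or otic mesenchyme-like class the shares were 56.8% and 26.2%, of 79 cells. Cldn11, the third gene of this compartment, was present in 70.6% of meninges-like cells with Gjb6 and 47.2% of those without. Gja1 did not go with Gjb2 there, at 23.3% of cells with Gjb2 and 28.5% of those without. In keratinocyte-like cells it did, at 62.6% and 39.8%. These shares pool the 4 libraries and describe cells of shared libraries, so they carry no test.

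Gja1, the most widely expressed connexin in most tissues, was found in many classes. Its level was 110, 105, 130 and 127 CPM over whole libraries. Over the 4 libraries together no class held more than 17.1% of its UMIs, while within 1 library keratinocyte-like cells held up to 26.0% (WT at day 25) and meninges-like cells up to 21.2% (WT at day 35). Keratinocyte-like cells had 356, 417, 361 and 554 CPM. The unnamed cluster 12, led by Ccl5 and Nos2, had 241, 297, 308 and 311 CPM, and the unnamed cluster 1, led by Csf3, Pgf and Mmp3, had 204, 200, 419 and 267 CPM. In otic epithelium Gja1 was at 15.6, 14.7, 16.8 and 26.1 CPM, below the 16.3, 18.4, 30.7 and 31.5 CPM of skeletal muscle-like cells in each library. Astrocyte-like cells had 86.6, 104, 244 and 224 CPM, higher at day 35 in both lines; the WT value of day 35 rests on 11 cells.

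Cldn9, which protects hair cells by keeping potassium out of the fluid at their base, had a larger share of its UMIs in otic epithelium than the other 9 members, 81.5% in 6.91% of the cells. Whole libraries had 25.7, 16.2, 132 and 195 CPM. Otic epithelium had 565, 534, 681 and 853 CPM. Within it, otoconial epithelium-like cells had 635, 841, 1008 and 1048 CPM and otic supporting epithelium-like cells 502, 467, 467 and 770 CPM, so that the KO library of day 35 was the high value among supporting cells. Hair cell-like cells also had Cldn9, at 404, 359, 412 and 489 CPM, from 20, 12, 62 and 35 cells. Clustered again without the top doublet scores, the class had 224, 452, 165 and 482 CPM from 2, 9, 16 and 27 cells, so that both WT values were lower. At 2000 UMIs per cell, 59.1%, 57.1%, 57.3% and 68.6% of otic epithelial cells had a Cldn9 UMI, against 0.837%, 0.624%, 2.16% and 1.70% of skeletal muscle-like cells. Without thinning these were 88.7%, 87.5%, 70.0% and 86.5% in otic epithelium (median 8184, 8297, 3665 and 5207 UMIs per cell). In skeletal muscle-like cells they were 2.45%, 1.61%, 3.24% and 4.67% (median 7184.5, 6678, 3131.5 and 4616 UMIs).

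Cldn6, a claudin of embryonic epithelia and pluripotent cells, was higher in the otic epithelium of the younger organoids. At day 25 it was at 156 CPM (140 to 173) in WT against 149 CPM (132 to 167) in KO. At day 35 the WT level was 43.3 CPM (37.4 to 49.8) and the KO level 78.5 CPM (72.4 to 84.9). The lines had overlapping intervals at day 25 and separate ones at day 35. Otic supporting epithelium-like cells (164, 149, 48.6 and 85.7 CPM) and otoconial epithelium-like cells (147, 147, 35.1 and 61.6 CPM) showed the same order of days. The unnamed epithelial cluster 13 had 134, 228, 69.1 and 119 CPM, again lower at day 35 in each line. Whole libraries showed another order, at 12, 6.60, 14.3 and 34.2 CPM. In the KO library of day 35, pluripotent cell-like cells had 87.0 CPM of Cldn6 and held 34.6% of its UMIs in that library. Over all libraries they held 14.3% of its UMIs. Among otic supporting epithelium-like cells at 2000 UMIs, Cldn9, whose 3′ end adjoins that of Cldn6, was present in 73.4% of those with Cldn6 and 52.6% of those without. In otoconial epithelium-like cells it was 80.0% and 79.6%.

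Cldn4, a claudin of simple epithelia that tightens the barrier to sodium, was lower in the otic epithelium of KO by more than 2-fold on both days. Otic epithelium had 336 CPM (312 to 361) in WT against 138 CPM (122 to 156) in KO at day 25, and 683 CPM (659 to 708) in WT against 324 CPM (312 to 337) in KO at day 35. The same order held in otic supporting epithelium-like cells (296, 116, 597 and 282 CPM) and in otoconial epithelium-like cells (380, 240, 814 and 422 CPM). At 2000 UMIs, 34.9%, 18.5%, 50.5% and 29.5% of otic epithelial cells had a Cldn4 UMI, against 1.99%, 0.364%, 1.87% and 0.637% of skeletal muscle-like cells. Unthinned shares were 64.5%, 39.9%, 62.8% and 44.9% in otic epithelium, and 7.66%, 1.35%, 3.5% and 2.55% in skeletal muscle-like cells. In the other epithelia with Cldn4 the lines lay closer together. Cluster 13 had 726, 647, 644 and 591 CPM, and keratinocyte-like cells 401, 301, 542 and 546 CPM.

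Cldn4 UMIs in cells that should lack the gene were also fewer in KO at day 25. In skeletal muscle-like cells Cldn4 was at 11.8, 2.21, 11.1 and 6.53 CPM. Fibroblast or mesenchyme-like cells at day 25 had 72 Cldn4 UMIs in WT and 29 in KO. The otic levels of day 25, 336 and 138 CPM, were both far above those in skeletal muscle-like cells. Whether such UMIs are background, and their part in the otic difference, was not tested.

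Cldn7, found in the same simple epithelia, had 32.7, 14.0, 109 and 117 CPM over whole libraries. Otic epithelium held 50.6% of its UMIs and cluster 13 held 30.2%. In otic epithelium it was at 297, 213, 366 and 391 CPM, and in cluster 13 at 388, 464, 475 and 496 CPM. Hair cell-like cells were below otic epithelium in each library, at 140, 59.8, 140 and 169 CPM, from 51, 5, 36 and 29 UMIs, and at 224, 77.9, 110 and 121 CPM without the top doublet scores. Keratinocyte-like cells were at 80.7, 72.6, 88.7 and 95.7 CPM. At 2000 UMIs, Cldn7 was present in 22.7% of keratinocyte-like cells with Cldn4 and 6.73% of those without. In otic supporting epithelium-like cells the shares were 42.5% and 41.2%, so that the pair did not go together cell by cell there.

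Cldn10, which forms ion-selective pores in kidney and glands, was a gene of cluster 13. This cluster, of 256, 81, 678 and 255 cells, was led by Gm6619, Lect1, Napsa, Cited1, Slpi and Krt18; it had 2 simple epithelium markers among its 50 leading genes, under the 3 needed for a name. It held 72.7% of the Cldn10 UMIs, at 520, 329, 725 and 1099 CPM. Its share was smallest in the KO library of day 25, at 24.7%, where keratinocyte-like cells held 31.2% and skeletal muscle-like cells 18.3%. In otic epithelium Cldn10 was at 9.66, 6.81, 19.7 and 12.7 CPM, from 13 to 101 UMIs. Skeletal muscle-like cells had 9.60, 11.4, 5.57 and 3.07 CPM, and at day 25 fibroblast or mesenchyme-like cells had 5.43 CPM (WT) and 3.67 CPM (KO). The otic level at day 25 thus lay near or below that of one class and above that of the other. Keratinocyte-like cells had 28.3, 83.5, 98.5 and 34.3 CPM, an order of the lines that turned between the days.

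Cldn11, which seals the basal cells of the stria vascularis and the layers of myelin, was a gene of meninges-like cells and of the oligodendrocyte lineage-like class. Whole libraries had 61.0, 58.9, 79.2 and 82.6 CPM. Meninges-like cells held 68.4% of its UMIs, at 604, 626, 470 and 552 CPM. At day 25 the oligodendrocyte lineage-like class had 274 CPM (WT) and 326 CPM (KO), and its KO cells of day 35 had 733 CPM, with 0 WT cells on that day. Otic fibrocyte or otic mesenchyme-like cells had 7 UMIs (31.2 CPM, 12.5 to 64.3) in WT at day 25 and 54 UMIs (413 CPM, 310 to 538) in WT at day 35. Otic epithelium had 24.8, 22.0, 12.8 and 15.1 CPM, against 8.55, 7.72, 6.84 and 7.29 CPM in skeletal muscle-like cells.

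Cldn12, a broadly expressed claudin, was low in every library, at 6.22, 4.93, 7.32 and 7.47 CPM. Otic epithelium had 12.9, 11.5, 11.4 and 9.83 CPM, with overlapping intervals in the 4 libraries. Hair cell-like cells had 13 UMIs in all. No class stood clearly above the others, since the range over libraries of each of the first 5 classes in its order overlapped that of the next.

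Between the lines, a gene was counted as past 2-fold when its log2 ratio of CPM was at least 1 in size. Its interval also had to leave out 0, and it needed at least 20 UMIs. This is a rule of size and not a test. The members were chosen with earlier results of these data known, so their counts beside the share of all genes are a description only. Over whole libraries at day 25, 0 of the 10 members were higher in KO by this rule, against 2.46% of 16984 genes. Lower in KO were 3 of 10, against 4.78% of genes: Cldn4 (log2 ratio -1.64, interval -1.71 to -1.57), Cldn7 (-1.23, -1.33 to -1.13) and Cldn10 (-1.19, -1.31 to -1.08). The median log2 ratio of the 10 was -0.67, and that of all genes -0.036. The classes that held most UMIs of these claudins had fewer cells in KO, in libraries of 11190 (KO) and 9768 (WT) cells. Otic epithelium had 168 against 186 cells, cluster 13 had 81 against 256 and the keratinocyte-like class 336 against 624. As shares of cells these were 1.5% against 1.90%, with overlapping intervals, 0.724% against 2.62%, and 3.003% against 6.39%. Within otic epithelium, KO had 142 against 104 otic supporting epithelium-like cells and 26 against 82 otoconial epithelium-like cells. The part of cell shares in the ratios of Cldn4, Cldn7 and Cldn10 was not tested. At day 35, 1 of 10 was higher in KO, against 9.76% of 15843 genes, and 0 of 10 lower, against 2.88%. The 1 was Cldn6, at 1.26 (1.10 to 1.42). Without the pluripotent cell-like cells its ratio was 0.86 and the count was 0. The members' median was 0.046 against 0.23 for all genes.

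Within otic epithelium at day 25, 0 of 10 were higher in KO, against 2.79% of 10373 genes, and 1 was lower, against 2.03%. This was Cldn4, at -1.28 (-1.49 to -1.08). Cldn7 was at -0.48 (-0.66 to -0.30), and the intervals of the other 8 members included 0. The members' median was -0.13 against 0.038 for all genes. In the otoconial epithelium-like cluster alone, with 26 KO cells, Cldn4 was at -0.66 (-1.02 to -0.31).

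At day 35 in otic epithelium, 0 of 10 were higher in KO, against 3.52% of 12141 genes, and 1 was lower, against 2.27%. Cldn4 was again the gene, at -1.08 (-1.15 to -1.0). Higher in KO without reaching 2-fold were Gjb2 (0.85, 0.59 to 1.12), Cldn6 (0.86, 0.62 to 1.10), Gja1 (0.63, 0.25 to 1.03), Gjb6 (0.48, 0.11 to 0.85) and Cldn9 (0.33, 0.26 to 0.39). The members' median was 0.28 against 0.14 for all genes. Cells with at least 1000 genes and at most 5% mitochondrial UMIs were also clustered again. The only otic class then formed was otoconial epithelium-like, with 288 WT and 581 KO cells of day 35. Cldn4 was at -0.64 (-0.78 to -0.51) there, short of 2-fold. The filter and the class definition changed together, and their parts were not tested apart. With the top doublet scores left out and the other cells clustered again, Cldn4 was at -0.98.

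In otic supporting epithelium-like cells alone at day 35, 2 of 10 members were higher in KO by the 2-fold rule, against 6.24% of 11376 genes, and 2 lower, against 2%. This cut was chosen after seeing the data. Gjb2 was at 1.03 (0.71 to 1.36) and Gjb6 at 1.04 (0.56 to 1.56), both higher in KO. Cldn4 was at -1.08 (-1.18 to -0.98) and Cldn10 at -1.07 (-1.62 to -0.52), both lower. Cldn10 rested on 58 UMIs in WT and 57 in KO, at 21.5 and 10.2 CPM. On that day cluster 13 had 725 (WT) and 1099 CPM (KO) of Cldn10, and skeletal muscle-like cells 5.57 and 3.07 CPM. The part of background in the Cldn10 ratio was not tested. Cldn9 was at 0.72 (0.63 to 0.81). The otoconial epithelium-like cluster of day 35 did not share the connexin differences. There Gjb6 was lower in KO, at 25.5 CPM in WT and 14.8 CPM in KO, from 45 and 35 UMIs. The intervals of these levels overlapped. Level intervals can overlap even where the interval of the ratio leaves out equal levels. The log2 ratio of Gjb6 in this cluster is given with the alternatives below. Gjb2 was at 35.1 and 42.6 CPM. Among the supporting cells, Gjb2 was at 36.0 CPM in WT at day 35, while the other libraries lay between 67.1 and 73.5 CPM. Gjb6 there was at 17.4, 24.2, 16.0 and 32.9 CPM, with KO at day 35 the highest. The WT library of day 35 was also the shallow one, and the part of depth was not tested.

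Between the days, over whole libraries, members that passed 2-fold were higher at day 35. In WT, 5 of 10 were higher, against 7.72% of 16397 genes, and 0 lower, against 14%. The 5 were Cldn9 (2.36, 2.28 to 2.44), Cldn7 (1.73), Cldn10 (1.61), Gjb6 (1.36) and Cldn4 (1.30). In KO, 7 of 10 were higher, against 12.8% of 16830 genes, and 0 lower, against 7.71%. These were Cldn9 (3.59, 3.51 to 3.67), Cldn7 (3.07), Cldn6 (2.37), Cldn4 (2.29), Cldn10 (2.21), Gjb2 (1.53) and Gjb6 (1.44). The members' median was 0.84 in WT and 1.87 in KO, against -0.14 and 0.14 for all genes. The share of otic epithelial cells was 1.90% at day 25 and 11.1% at day 35 in WT, and 1.5% and 18.1% in KO. Over the 4 libraries together, Gjb6 had 76.6% of its UMIs in meninges-like cells, and Cldn10 had 72.7% in cluster 13. The part of cell shares in these ratios was not tested. In WT the stricter filter on cells left 3215 of 8166 cells at day 35 and 1 of the 5 members past 2-fold, Cldn9 at 1.39, with Gjb6 at 0.73, Cldn4 at 0.61, Cldn7 at 0.95 and Cldn10 at 0.28. Cldn6 and Cldn11, which had not passed 2-fold in WT, were then at -0.35 and -0.16. The comparisons of lines and of days share libraries, and each is given on its own.

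Within otic epithelium, fewer members passed 2-fold between the days. In WT, 2 of 10 were higher at day 35, against 5.41% of 11090 genes, and 1 lower, against 9.94%. Cldn4 was at 1.02 (0.91 to 1.14), Cldn10 at 1.03 (0.33 to 1.79, from 21 and 88 UMIs) and Cldn6 at -1.85 (-2.11 to -1.59). Cldn4 was at 0.63 with the stricter filter on cells and its own clustering, and Cldn10 at 0.75 without the highest doublet scores, both short of 2-fold. In KO, 1 of 10 was higher, against 3.65% of 11840 genes, and 0 lower, against 6.22%. This was Cldn4, at 1.23 (1.05 to 1.42), while Cldn6 was at -0.92 (-1.13 to -0.71) and Cldn9 at 0.68 (0.58 to 0.77). The members' median was 0.0015 in WT and 0.40 in KO, against -0.099 and -0.0085 for all genes.

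**Figure D1:**
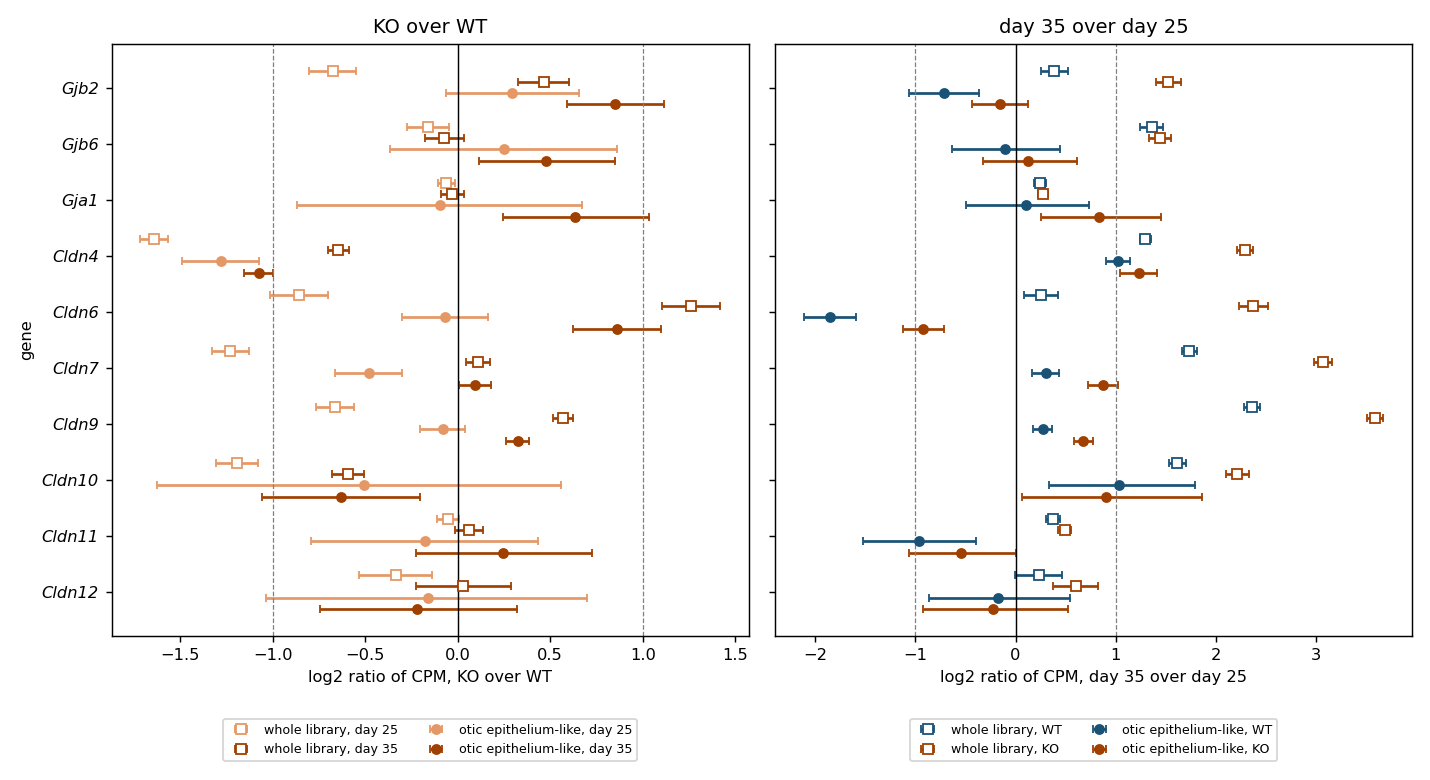
Log2 ratio of CPM with 95% counting intervals for each of the 10 genes in the 4 comparisons, over whole libraries and within otic epithelium; dashed lines mark 2-fold. Whole-library ratios of day 35 over day 25 lie above 0 for every member in both lines, while within otic epithelium Cldn6 lies below 0 in both lines (-1.85 and -0.92) and Cldn4 is below 0 in KO over WT on both days (-1.28 and -1.08).

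Outside the otic epithelium, members were also higher at day 35 in the WT otic fibrocyte or otic mesenchyme-like class, from 38 and 39 cells. Cldn11 was at 3.73 (2.59 to 5.11), Gjb6 at 2.36 (1.74 to 3.02) and Gjb2 at 2.05 (1.49 to 2.62), each as the log2 ratio of day 35 over day 25. In meninges-like cells of KO, Gjb2 was higher at day 35 by 1.05 (0.83 to 1.27). Cldn10 in cluster 13 was higher at day 35 in KO by 1.74 (1.54 to 1.94). Cldn11 in cluster 13 was higher in KO on both days, at 1.37 (0.88 to 1.86) and 1.16 (0.65 to 1.67). In keratinocyte-like cells at day 35, Cldn9 was higher in KO at 2.87 (1.42 to 4.79), from 53 UMIs against 4. Otic epithelium, which held 81.5% of Cldn9 UMIs, was 18.1% of KO and 11.1% of WT cells on that day. The part of background in this ratio was not tested. Skeletal muscle-like cells also had higher Cldn9 and Cldn7 at day 35 in both lines, at 1.33 and 1.12 in WT and 1.57 and 1.19 in KO, and at levels of 10.5 CPM or less.

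The other genes of these junctions were taken from fixed lists, also chosen with earlier results of these data known. Of 24 other claudins 22 were in the table and 6 had at least 50 UMIs in otic epithelium. Cldn3, the neighbour of Cldn4, had 609, 393, 456 and 445 CPM there, and Cldn8 16.6, 15.7, 41.3 and 38.7 CPM. Cldn14, a claudin whose loss causes deafness, had 24.4, 25.7, 11.9 and 27.5 CPM. Of 17 other connexins 1 reached 50 otic UMIs. Of 22 other tight junction genes, such as Ocln, Ildr1, Lsr and Marveld2, 20 were in the table and 18 reached 50 otic UMIs.

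In otic epithelium, 0 of 18 tight junction genes at day 25 and 0 of 20 at day 35 passed 2-fold between the lines in either direction. Of all genes there, 2.79% were higher and 2.03% lower in KO at day 25. At day 35 these shares were 3.52% and 2.27%, so a count of 0 lies near them. Of 6 other claudins, Cldn22 was lower in KO at day 25, with 67 UMIs against 3 (log2 ratio -4.29, -6.61 to -2.69), and Cldn14 was higher in KO at day 35 (1.21, 0.77 to 1.67). Of 9 ion transport genes, Slc26a4, the pendrin exchanger of endolymph, was higher in KO at day 25 (1.22, 0.84 to 1.61) and Kcnj10 at day 35. Over whole libraries at day 25, 5 of 20 tight junction genes were lower in KO (Ocln, Marveld3, Ildr1, F11r and Crb3), as were 3 of 9 other claudins (Cldn3, Cldn22 and Cldn23), against 4.78% of all genes. Of 14 other connexins 1 was higher and 1 lower, against 2.46% and 4.78% of all genes. The medians of the tight junction genes and claudins were -0.70 and -0.37, against -0.036 for all genes. At day 35 against day 25, 3 of 20 tight junction genes were higher in WT and 12 of 20 in KO, against 7.72% and 12.8% of all genes, and 1, Jam3, was lower in KO. Of 9 other claudins, 3 were higher and 2 lower in WT, and 5 higher and 2 lower in KO, with Cldn1 and Cldn15 lower in both lines. Other connexins went the other way: 6 of 12 were lower and 0 higher in WT (median -1.26), against 14% of genes lower, and in KO 3 of 14 were lower, against 7.71%, and 1 higher.

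Across the 25 clusters, the gene whose level was most like that of Cldn9 was Otoa, a protein that anchors the gel over the sensory cells, with a Pearson correlation of 0.99, followed by the potassium channel gene Kcnq1. Cldn4 was most like Krtcap3 (0.99) and Krt18 (0.98), and Cldn7 most like Crb3 (0.99), a polarity protein of the apical membrane. Cldn6 was most like Kcnk1 (0.98). Gjb2 was most like Clic6 (0.94), with Gjb6 next (0.88). For Gjb6 it was Itih2 (0.95), for Cldn10 Bpifc (0.93), for Cldn11 Serinc5 (0.89), for Cldn12 Gm10244 (0.90) and for Gja1 Ass1 (0.85). Among the members, Cldn4 and Cldn7 had 0.95 and Cldn6 and Cldn7 0.94. These correlations are over clusters that share the 4 libraries and are given as a description.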

How the data were processed

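Droplet-based 3′ single-cell RNA sequencing was carried out on dissociated inner ear organoids, 1 library per group. The deposited matrices hold raw UMI counts per gene and barcode, made by the authors. Tools listed in the submitters' processing notes are bcl2fastq, Cell Ranger 2.1.0, R 3.5.1 and Seurat 2.3.1, with GRCm38 and mm10 as builds. The sources used here do not give strand use or the treatment of reads matching several genes.

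Barcodes with at least 500 genes and at most 10% mitochondrial UMIs were kept (35853 of 37597). Kept cells were clustered together in Python 3.11.15 with scanpy 1.11.5 and leidenalg 0.10.2 (2000 variable genes, 30 principal components, 20 neighbours, resolution 1.0), leaving all connexins, claudins and listed junction genes out of the variable genes. A cluster was named when at least 3 markers of 1 of 25 sets were among its 50 leading genes by fold after adding 10 CPM, at least 2 among the first 20, and no other set had more among the first 10. Doublet scores were computed and no cell removed; removing the 2660 highest was an alternative. Intervals (scipy 1.17.1) are exact at 95%: Poisson for levels, Clopper-Pearson for shares, conditional binomial for ratios. They cover counting error only. All 10 members are described, and gene positions came from GENCODE M21, which held 27645 of 27998 gene identifiers. The ratio computation was tested on simulated data. With 1 library per group no test was made. The members and lists were chosen with earlier results of these data known.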

Additional observations from a re-analysis of the deposited data

Results flagged for a closer look

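For 5 values the KO over WT log2 ratio had counting intervals on opposite sides of 0 on the 2 days and passed 2-fold on at least 1 of them; other ratios turned sign without reaching 2-fold. With 1 library per group the difference between the days was not tested, and a difference of sign alone has no replicate check.

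Cldn10 in keratinocyte-like cells was higher in KO at day 25 (1.56) and lower at day 35 (-1.52), a difference of -3.085 between the days. Cldn6 over whole libraries was at -0.86 and then 1.26, a difference of 2.12, with 319 pluripotent cell-like cells in the KO library of day 35. Cldn7 over whole libraries was at -1.23 and then 0.11, a difference of 1.34. Gjb2 in fibroblast or mesenchyme-like cells was at -0.77 and then 1.55, a difference of 2.32, on 36 and 33 UMIs at day 25 and 8 and 30 at day 35 in WT and KO. Gjb6 in skeletal muscle-like cells was at 0.80 and then -1.84, a difference of -2.65, from 3 to 52 UMIs per library.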

How the results depend on the processing

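Of 70 counts of members past 2-fold under the alternatives, 58 stayed within 1.5 times their value and 12 moved. In otic epithelium for KO over WT, the count at day 25 (1) was 2 with the mean of each cell's own CPM. At day 35 (1) it was 2 with the stricter filter on cells, 4 with each library clustered alone and 4 in the otic supporting epithelium-like cluster only. Using either otic cluster alone was an alternative chosen after seeing the data. Cells passing the stricter filter were clustered again and formed no otic supporting epithelium-like class. In otic epithelium that alternative therefore changed the class definition as well as the filter. For day 35 over day 25 in KO otic epithelium (1) it was 3 with the stricter filter, 2 without the highest doublet scores, 3 with the mean of each cell's CPM and 3 in the otoconial epithelium-like cluster only. For whole libraries, KO over WT at day 35 (1) it was 2 with the stricter filter, 0 with the mean of each cell's CPM and 0 without pluripotent cell-like cells. For day 35 over day 25 in WT whole libraries (5) it was 1 with the stricter filter, which left 3215 of 8166 cells. The cause of these shifts was not tested.

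Of 700 log2 ratios of single members, 532 stayed within the counting interval, 156 moved beyond it and 12 turned sign. With the stricter filter, Cldn10 was at 0.26 in KO over WT whole libraries at day 35; in WT at day 35 over day 25, Cldn11 was at -0.16 and Cldn6 at -0.35 over whole libraries, and Cldn7 at -0.15 and Cldn9 at -0.54 in otic epithelium. In the supporting cluster only, the latter were -0.0066 and -0.10. In the otoconial cluster only, KO over WT at day 35 was 0.13 for Cldn10 and -0.79 for Gjb6. Scaling by the median ratio over genes turned Cldn7 in KO over WT at day 35 to -0.042 in otic epithelium and -0.12 over whole libraries, and clustering each library alone turned it to -0.063. Cldn4 in otic epithelium kept its sign under every alternative run. Clustering each library alone formed no otic class in KO at day 25, so those comparisons have no value. Of 12 levels in hair cell-like cells, 6 moved without the top doublet scores, an alternative chosen after seeing the data. The named class with the highest level stayed the same in 17 of 30 cases across the clustering alternatives. At resolution 0.5 Gjb2 was highest in keratinocyte-like and Gjb6 in meninges-like cells; at resolution 2.0 Cldn4 was highest in a simple epithelium-like class. No paired analysis was possible because each group has 1 library. The depth of WT at day 35 limits the shares of cells there.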
